A study of Mus musculus with 8 samples.

Results

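The interferon-stimulated genes followed here are 47 named genes that type I and type II interferons are known to induce, read from the deposited table by gene name. All 47 were listed among its 23761 genes. Bone marrow-derived macrophages (BMDMs) of 4 LysM and 4 K2KO mice, all 3 months of age, were sequenced with 1 library per mouse, and the question asked is how the transcriptome differs when Klf2 is deleted in myeloid cells. The control genotype is LysM Cre/Cre and the other is LysM Cre/Cre KLF2 flox/flox, so both groups carry the Cre recombinase, which is inserted in the lysozyme M gene and is active in macrophages, neutrophils and part of the dendritic cells. The marrow cells had been cultured for 6 days in medium conditioned by L929 fibroblasts. The sample descriptions mark every library as vehicle, and no library was given interferon according to the labels. The columns of the table give a genotype and a number but not the mouse, and the libraries are called LysM0 to LysM3 and K2KO0 to K2KO3. These column numbers do not match those of the sample titles, so K2KO1 here need not be the sample titled K2KO1.

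Secretion of type I interferons follows when cells sense viral or bacterial nucleic acids, among other signals. Type I interferons bind the receptor made of IFNAR1 and IFNAR2, whose kinases JAK1 and TYK2 phosphorylate STAT proteins. A complex that holds STAT2 and IRF9 then binds the interferon-stimulated response element (ISRE) near the start of many target genes, while interferon gamma acts through IFNGR1, IFNGR2, JAK1 and JAK2, and its targets carry gamma-activated sites. Resting macrophages are known to hold a basal level of many of these transcripts through small amounts of interferon acting on the same cells. Many of the products act together against viruses by sensing, binding or degrading foreign RNA, and a family of GTPases among them acts on vacuoles that hold bacteria or parasites.

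The promoters show the element that many of these genes share. RefSeq promoters on GRCm38.p6, from 250 bases before to 50 after each start site, were matched by symbol for 37 of the 47 genes (44 promoters). The letters GAAA, any 2 bases and GAAA again, the core of an ISRE, were found on either strand in 22 of the 44, or 50%, against 3.44% of all 32851 promoters of the same length. The letters TTCNNNGAA of a gamma-activated site, which read the same on both strands, were found in 12 of the 44 (27.3%, against 8.3% of all). In 8 promoters both were found, and in 2 of these a match of one overlapped a match of the other. The letters CCNCNCCC, a CACCC-type box of the kind that KLF factors bind, were found in 18 of the 44 (40.9%, against 49.5% of all). A match in these windows describes the letters and is not a measured binding site. The promoter of Isg15 is printed whole because it holds 3 overlapping ISRE matches, and that of Dtx3l because Dtx3l is the gene of the list that rose and its window holds none of the 3 patterns. For genes of the other families a window of up to 30 bases around a match is given. All are on GRCm38.p6 and written along the strand of the gene. ISRE matches that lie whole in the printed stretch are in capitals, and overlapping matches run together. Matches of the opposite strand appear as TTTC, 2 bases and TTTC.
Isg15 (chr4:156200769-156201068, minus strand): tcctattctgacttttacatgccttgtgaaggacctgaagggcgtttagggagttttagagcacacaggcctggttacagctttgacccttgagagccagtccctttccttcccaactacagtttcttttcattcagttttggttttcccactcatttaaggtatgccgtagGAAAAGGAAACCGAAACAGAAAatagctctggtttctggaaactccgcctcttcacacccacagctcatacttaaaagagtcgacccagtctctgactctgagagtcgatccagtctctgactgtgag
Dtx3l (chr16:35938978-35939277, minus strand): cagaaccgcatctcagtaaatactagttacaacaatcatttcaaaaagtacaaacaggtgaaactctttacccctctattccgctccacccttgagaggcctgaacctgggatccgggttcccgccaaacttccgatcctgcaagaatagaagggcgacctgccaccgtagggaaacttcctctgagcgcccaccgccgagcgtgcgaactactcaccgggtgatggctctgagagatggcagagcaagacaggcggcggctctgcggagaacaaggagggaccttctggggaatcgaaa
Ifit1 (chr19:34640794-34640823, plus strand): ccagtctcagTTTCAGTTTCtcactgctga
Ifit3 (chr19:34583363-34583392, plus strand): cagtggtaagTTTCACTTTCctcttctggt
Ifit3b (chr19:34607759-34607788, plus strand): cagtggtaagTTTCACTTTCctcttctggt
Oas1a (chr5:120907520-120907549, minus strand): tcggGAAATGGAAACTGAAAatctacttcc
Oas1g (chr5:120887606-120887635, minus strand): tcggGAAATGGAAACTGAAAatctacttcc
Ifitm3 (chr7:141010706-141010735, minus strand): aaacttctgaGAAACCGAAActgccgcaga
Bst2 (chr8:71537583-71537612, minus strand): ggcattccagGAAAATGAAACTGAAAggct
Ifih1 (chr2:62646206-62646233, minus strand): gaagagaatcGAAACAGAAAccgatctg
Gbp2 (chr3:142620594-142620623, plus strand): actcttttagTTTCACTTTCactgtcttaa
Igtp (chr11:58199512-58199541, plus strand): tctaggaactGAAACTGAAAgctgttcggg
The windows of Ifit3 and Ifit3b hold the same letters, as do those of Oas1a and Oas1g. The transcripts of these pairs are near-identical too, at 97.8% over 1700 bases for Ifit3 and Ifit3b and 97.6% over 1861 bases for Oas1a and Oas1g, so reads of one can be counted for the other and their values are uncertain.

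Levels are given as the authors' FPKM, which divide the fragments of a gene by its length and by the mapped fragments of the library. Summed over all listed genes, FPKM came to between 497253 and 551608 for LysM and to between 448235 and 501965 for K2KO. FPKM hold no read counts, so the depth behind a value is unknown and no counting interval could be given. The commonest ratio between low values put the relative depth of the libraries between 0.877 (K2KO2) and 1.44 (K2KO1), with LysM0 set to 1. The libraries labelled K2KO did not have clearly less Klf2. Klf2, on chromosome 8 from 72319033 to 72321656 on the plus strand, was at 44.1, 52.9, 64.7 and 72.8 FPKM in LysM0 to LysM3 and 45.5, 41.6, 59.2 and 59.3 FPKM in K2KO0 to K2KO3. The groups overlapped, and the difference was within the spread between libraries (log2 fold change -0.18, 95% interval -0.57 to 0.21, limma adjusted p = 0.4596, exact two-sided permutation test over the libraries, p = 0.429). A gene-level value cannot separate the floxed exons from the rest, so directions below refer to the libraries labelled K2KO. As macrophage markers, Csf1r was at 480 to 600.3 FPKM, Adgre1 at 351 to 519 FPKM and Cd68 at 1637 to 1942 FPKM over the 8 libraries. Lyz2, the gene that carries the Cre, was at 18.6 ± 2.88 FPKM (SD, n = 4) in LysM BMDMs against 13.2 ± 1.73 FPKM (SD, n = 4) in those labelled K2KO (log2 fold change -0.49, 95% interval -0.77 to -0.22, limma adjusted p = 0.02603).

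Of the 45 interferon-stimulated genes that could be tested, 2 were called between the genotypes. Dtx3l was higher and Ifi27l2a lower in the libraries labelled K2KO. Genes averaging 1 FPKM or more over the 8 libraries entered a limma fit on the log2(FPKM + 0.1) scale, which makes the fold change of a low gene smaller than its ratio of FPKM, and a gene was called at a Benjamini-Hochberg adjusted p under 0.05 (over all 10920 tested genes) with an absolute log2 fold change over 0.26. Among all tested genes 18.4% were called, 9.84% higher and 8.61% lower, against 4.44% of the 45. Of all calls 53.3% were higher, and this balance depended on the scaling, with 64.1% after upper-quartile scaling over tested genes, 46.3% after upper-quartile scaling over all genes above 0 and 44.2% after adjusting each library for GC and length. Dtx3l and Ifih1 were called, and Ifi27l2a was not, under the first of these. The groups of 4 did not overlap for 1 of the 45, Dtx3l, while this held for 23.1% of all tested genes. The median log2 fold change was -0.10 over the 45 and 0.011 over all tested genes, and 33 of the 45 were below 0 (48.2% of all tested genes). The sign of this median rested on K2KO1, without which it was 0.078 with 30 of the 45 above 0. The size of the changes was alike, with a median absolute log2 fold change of 0.19 over the 45 and 0.17 over all, but the median standard error was 0.24 against 0.093. For 40 of the 45 the 95% interval held both no change and a change of 0.26 in at least one direction, and for none did it lie wholly between -0.26 and 0.26, so the test does not show that these genes were alike in the genotypes. At an unadjusted p under 0.05 there were 5 of the 45, or 11.1%, against 37.8% of all. Gbp5 and Gbp7 were below the filter.

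**Figure D1:**
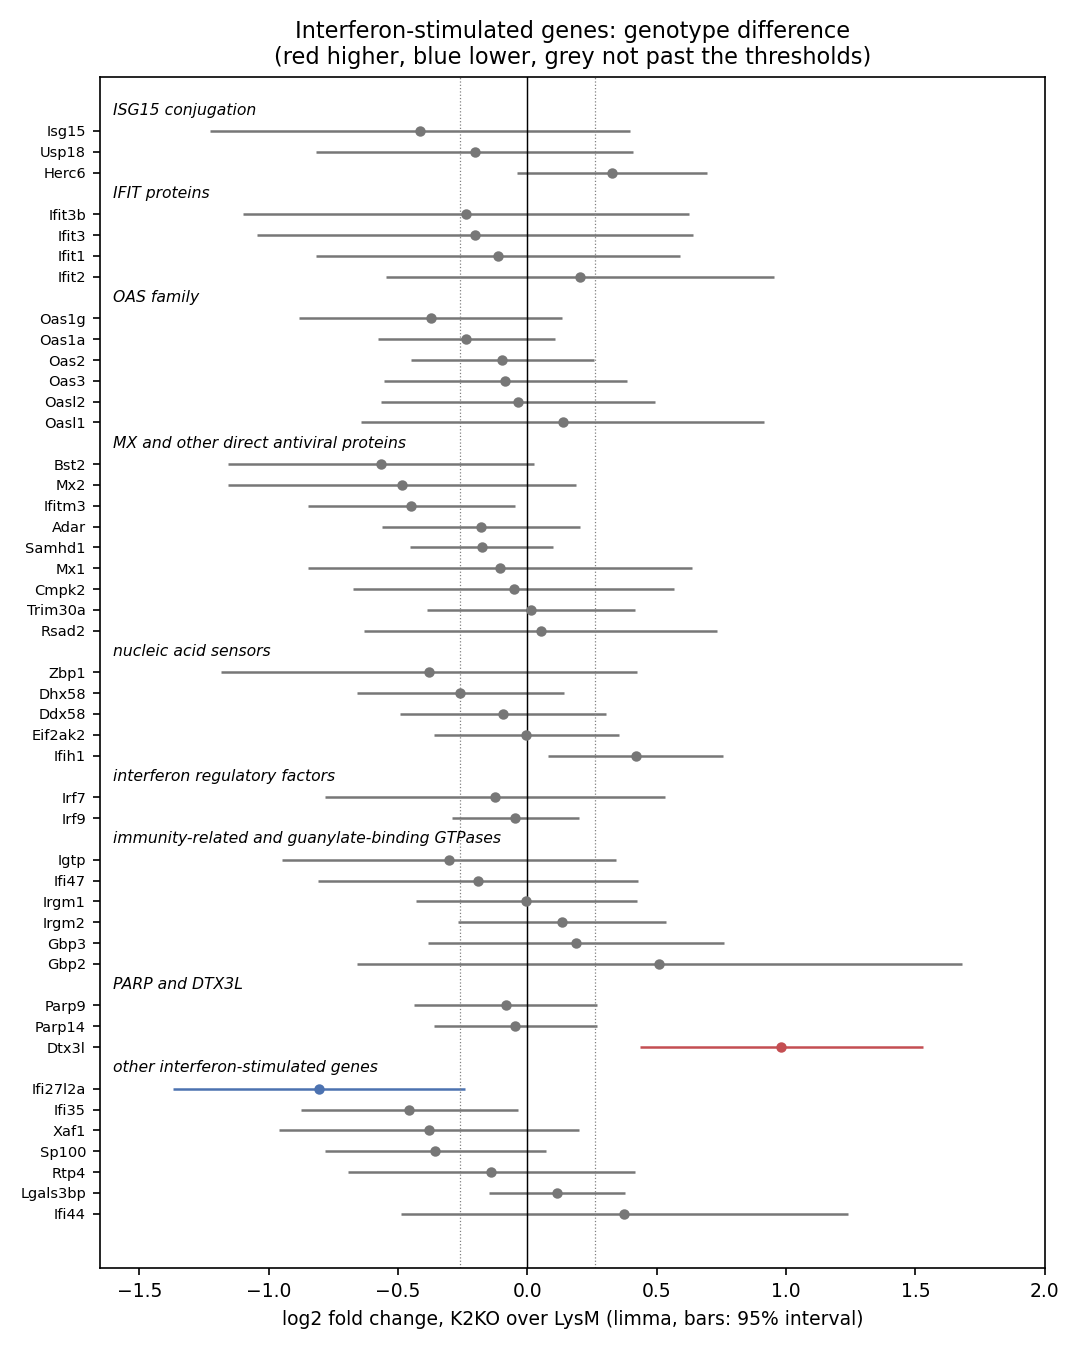
Log2 fold change of each of the 45 tested interferon-stimulated genes, libraries labelled K2KO over LysM libraries (x axis), grouped by role (y axis), with points for the limma estimate, bars for its 95% interval and dotted lines at -0.26 and 0.26. Dtx3l (0.98) and Ifi27l2a (-0.81) are the 2 called genes, and most other intervals cross 0.

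Dtx3l encodes a ubiquitin ligase that works in a complex with PARP9. It lies on chromosome 16 from 35926511 to 35939151 on the minus strand and was at 0.981, 0.949, 1.39 and 1.51 FPKM in LysM0 to LysM3 and 3.53, 2.44, 2.58 and 1.57 FPKM in K2KO0 to K2KO3. Every library labelled K2KO was above every LysM library, although K2KO3 was close to LysM3. The means were 1.21 ± 0.283 FPKM (SD, n = 4) and 2.53 ± 0.799 FPKM (SD, n = 4) (log2 fold change 0.98, 95% interval 0.43 to 1.53, limma adjusted p = 0.02601). The partner gene Parp9 starts beside it on the other strand, and 458 exon bases, 8% of those of Dtx3l, lie in both genes. Parp9 was at 25.3 ± 4.899 FPKM (SD, n = 4) and 23.7 ± 3.51 FPKM (SD, n = 4) (log2 fold change -0.083, 95% interval -0.44 to 0.27, limma adjusted p = 0.7200). The library kit keeps the strand, but whether strand was used in counting is not given in the sources used here, so the FPKM of the pair are uncertain. Dtx3l was no longer called once each library was adjusted for GC and length of the transcripts (log2 fold change 0.84, limma adjusted p = 0.0504), and of the 8 fits that left out 1 library it was called in those without LysM0, LysM2 or K2KO3. In the other 5 (without LysM1, LysM3, K2KO0, K2KO1 or K2KO2) the limma adjusted p was 0.0502 to 0.0702.

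Ifi27l2a encodes a small hydrophobic protein of the ISG12 family and was the second most abundant transcript of the list. It lies on chromosome 12 from 103442167 to 103443680 on the minus strand and was at 998, 1343, 2211 and 1845 FPKM in LysM0 to LysM3 and 969, 621, 1016 and 958 FPKM in K2KO0 to K2KO3. LysM2 and LysM3 were the highest and K2KO1 the lowest, and the groups overlapped because K2KO2 was above LysM0. The means were 1599 ± 536 FPKM (SD, n = 4) and 891 ± 182 FPKM (SD, n = 4) (log2 fold change -0.81, 95% interval -1.37 to -0.24, limma adjusted p = 0.0492). The adjusted p is close to the threshold, and it was above it with a pseudocount of 1 (0.0532) or quantile normalization (0.1499, with a log2 fold change of -0.49). The call was also lost after the adjustment for GC and length (log2 fold change -0.66, limma adjusted p = 0.0900). With the log2 fold change still at -0.81, it was lost as well with a lower filter, no filter, no intensity trend or ordinary least squares. With 1 library left out the call held in 1 of 8 fits, the one without LysM0 (limma adjusted p = 0.0163). Without any one of the other 7 libraries the limma adjusted p was 0.0549 to 0.127.

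Within each genotype the libraries differed widely in these genes, and nearly all of the genes were low in the same libraries. LysM0 and K2KO1 were low, LysM2 and LysM3 were high, and LysM1, K2KO0, K2KO2 and K2KO3 lay between. The median deviation of the 45 genes from their means over the 8 libraries was -0.48 in LysM0, 0.044 in LysM1, 0.26 in LysM2 and 0.40 in LysM3 on the log2 scale. It was 0.15 in K2KO0, -0.71 in K2KO1, 0.082 in K2KO2 and 0.13 in K2KO3, while the median of all tested genes stayed between -0.023 and 0.04. In LysM0 45 of the 45 were below the mean of their genotype (53.6% of all tested genes), in LysM2 and LysM3 45 of 45 were above it, and in K2KO1 44 of 45 were below it (46.7% of all). For 44 of the 45 the lowest LysM library was LysM0, and for 44 the lowest K2KO library was K2KO1. Among all tested genes 13.0% were lowest in both of these libraries, and 44 of the 45 were. These 2 libraries were singled out after their values in these genes were seen, so the counts are a description. The exception was Dtx3l, which was lowest in LysM1 and in K2KO3. Klf2 itself was also lowest in LysM0 and K2KO1 of its genotypes, at 44.1 and 41.6 FPKM.

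**Figure D2:**
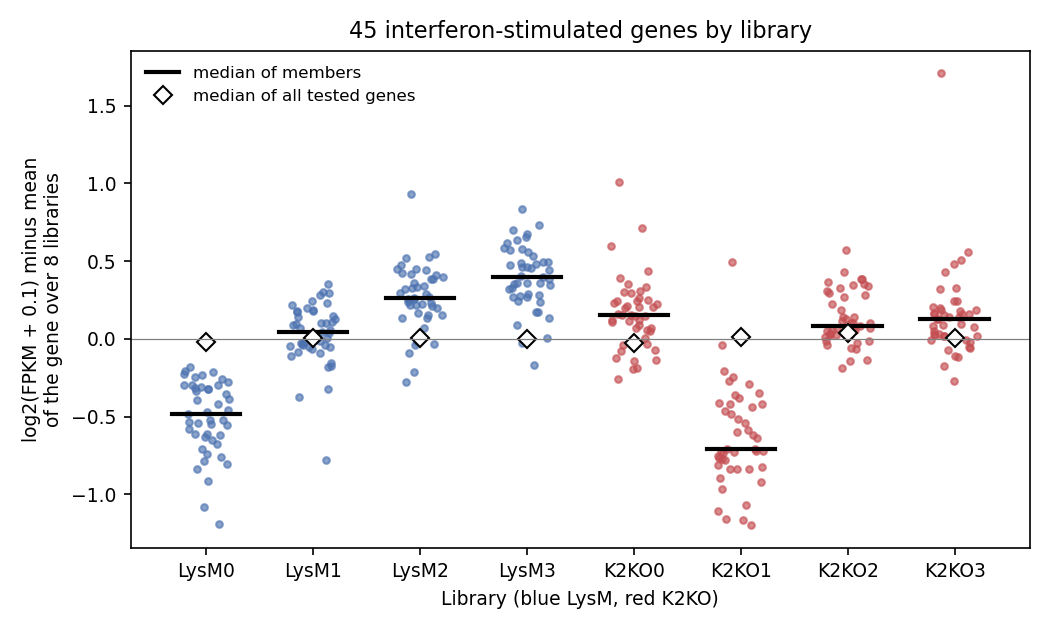
Deviation of each of the 45 tested interferon-stimulated genes from its mean over the 8 libraries on the log2(FPKM + 0.1) scale (y axis), by library (x axis). Each point is a gene, the black bar is the median of the 45 and the diamond the median of all 10920 tested genes. LysM0 (-0.48) and K2KO1 (-0.71) are the low libraries.

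The spread between libraries of a genotype was larger for these genes than for most others. Its pooled SD on the log2 scale had a median of 0.404 over the 45 and 0.132 over all tested genes. It ranged from 0.175 for Irf9 to 0.908 for Gbp2. All 45 were above the median of all tested genes, and 29 were above their upper decile of 0.312. Isg15 differed 2.54-fold between the highest and the lowest LysM library and 2.61-fold between those labelled K2KO, while its genotype means differed by -0.42 on the log2 scale.

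**Figure D3:**
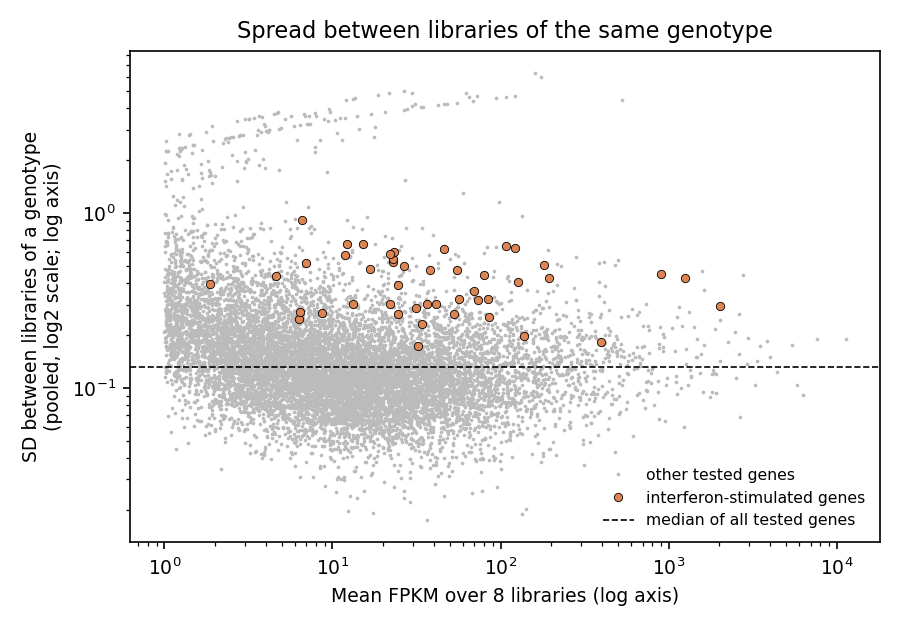
Pooled SD between libraries of the same genotype on the log2 scale (y axis, log axis) against the mean FPKM over the 8 libraries (x axis, log axis) for all 10920 tested genes (grey) and the 45 tested interferon-stimulated genes (orange). The orange points lie above the dashed median of 0.132.

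The fit was repeated without these 2 libraries, an alternative chosen after the values were seen. Without LysM0 and K2KO1, 10 of the 45 genes were called, 2 higher and 8 lower, against 14.5% of all tested genes. Ifih1 and Herc6 were higher in the libraries labelled K2KO. Ifi27l2a, Ifitm3, Bst2, Xaf1, Ifi35, Mx2, Sp100 and Oas1g were lower, with log2 fold changes from -0.33 (Oas1g) to -0.85 (Ifi27l2a). Dtx3l was not called (log2 fold change 0.90, limma adjusted p = 0.0764). The libraries were left out for their level in these same genes, so this count is a description. Without LysM0 alone 6 of the 45 were called, against 21.9% of all tested genes. Without K2KO1 alone 0 were called by limma, with 4 at an unadjusted p under 0.05, against 7.55% of all called.

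Among the proteins that act directly on viruses, Ifitm3, which blocks the fusion of viruses with endosomes, had the highest mean of the list at 2021 FPKM. It was at 1601, 2420.3, 2588 and 2775 FPKM in LysM0 to LysM3 and 1808, 1352, 1881 and 1743 FPKM in K2KO0 to K2KO3. LysM0 lay among the libraries labelled K2KO, and the other LysM libraries were above all of them. Its difference did not pass the test (log2 fold change -0.45, 95% interval -0.85 to -0.049, limma adjusted p = 0.0984), and it nearly vanished with quantile normalization (-0.04, limma adjusted p = 0.834). Bst2, or tetherin, holds budding virions at the cell surface. It lies on chromosome 8 from 71534255 to 71537456 on the minus strand, close to the targeted Klf2 (72319033 to 72321656). Whether this position bears on its values was not tested. Bst2 was at 685, 1035, 1222 and 1319.9 FPKM in LysM0 to LysM3 and 744, 436, 773 and 949.8 FPKM in K2KO0 to K2KO3. The groups overlapped from 685 FPKM (LysM0) to 949.8 FPKM (K2KO3), and the difference did not pass the test (log2 fold change -0.57, 95% interval -1.16 to 0.026, limma adjusted p = 0.146).

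**Figure D4:**
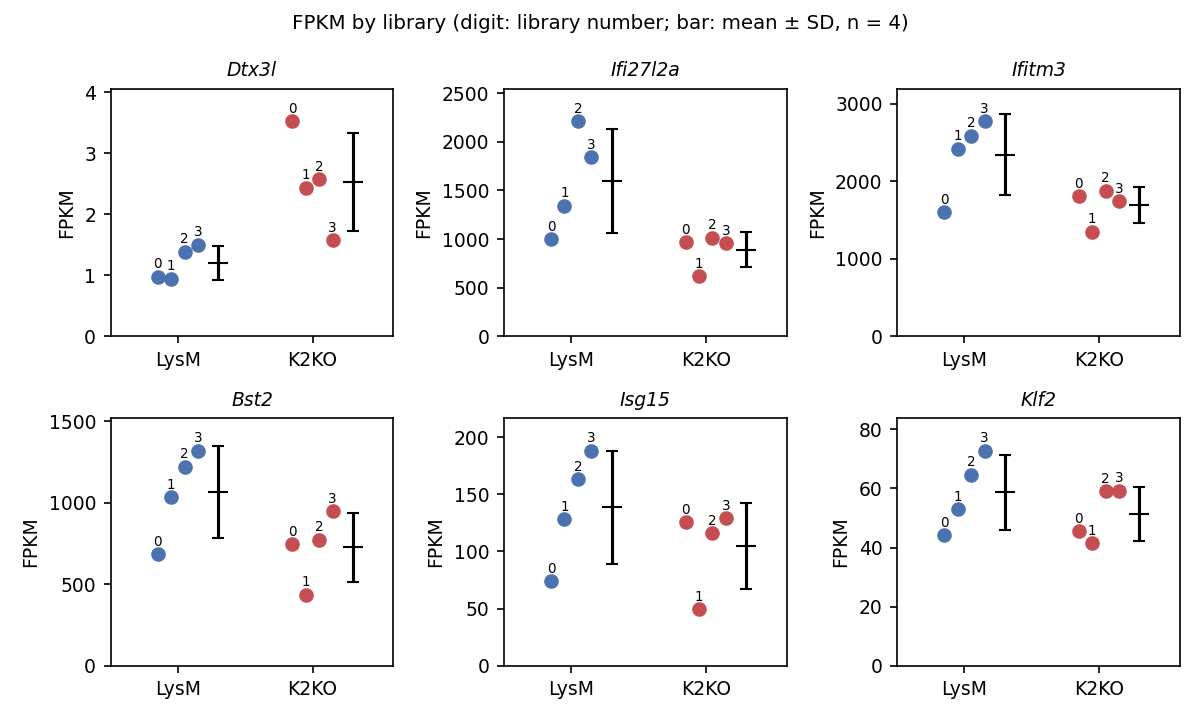
FPKM (y axis, from 0) of Dtx3l, Ifi27l2a, Ifitm3, Bst2, Isg15 and Klf2 in each library, with the library number beside each point and the mean ± SD (n = 4) at its right. For Ifi27l2a, Ifitm3, Bst2, Isg15 and Klf2 the libraries LysM0 and K2KO1 are the lowest of their genotype, and for Dtx3l all 4 libraries labelled K2KO are above the LysM libraries.

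Of the 9 genes of this class 0 were called and 7 had a log2 fold change below 0. Mx1 and Mx2 belong to a family of dynamin-like GTPases that act against viruses, and genes of this pair are defective in many inbred laboratory strains. FPKM do not show whether these mice make an active protein from either gene. Mx2 was at 4.99, 7.79, 9.62 and 9.79 FPKM in LysM0 to LysM3 and 7.16, 2.99, 6.51 and 6.69 FPKM in K2KO0 to K2KO3. K2KO1 was the lowest and LysM0 the next, and the difference was within the spread (log2 fold change -0.48, 95% interval -1.16 to 0.19, limma adjusted p = 0.258). A stretch of 843 bases with 95.3% identity to Mx1 makes the split between both genes uncertain, and Mx1 had a log2 fold change of -0.10 (limma adjusted p = 0.839). Rsad2 (viperin), which makes a nucleotide that ends viral RNA chains, and its neighbour Cmpk2 had log2 fold changes of 0.052 and -0.053. Samhd1, which removes the nucleotides that reverse transcription needs, had -0.18 (95% interval -0.45 to 0.10). Trim30a had 0.014 and Adar, an editor of double-stranded RNA, -0.18.

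None of the 3 genes of ISG15 conjugation was called. Isg15, a ubiquitin-like protein that is joined to many others, was at 74.2, 128, 163 and 188 FPKM in LysM0 to LysM3 and 125, 49.3, 116 and 129 FPKM in K2KO0 to K2KO3 (log2 fold change -0.42, 95% interval -1.23 to 0.40, limma adjusted p = 0.421). The LysM libraries covered the whole range of those labelled K2KO except K2KO1. Usp18, which removes ISG15 and restrains the type I receptor, was at 24.9, 41.6, 45.8 and 50.2 FPKM in LysM0 to LysM3 and 40.7, 20.5, 39.7 and 40.9 FPKM in K2KO0 to K2KO3. Its 3 higher libraries labelled K2KO differed by less than 2 FPKM while K2KO1 was near LysM0 (log2 fold change -0.20, 95% interval -0.82 to 0.41, limma adjusted p = 0.608). Herc6, the ligase that joins ISG15 to its targets in the mouse, had a log2 fold change above 0 that did not pass the test (log2 fold change 0.33, 95% interval -0.039 to 0.69, limma adjusted p = 0.169). Herc6 shares 1269 exon bases on the same strand with the listed gene Gm45193 and is uncertain for it.

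The 4 IFIT genes, whose proteins bind viral RNA, had 0 calls. Their log2 fold changes were -0.11 for Ifit1, 0.20 for Ifit2, -0.20 for Ifit3 and -0.24 for Ifit3b, with adjusted p of 0.673 to 0.813 by limma. Ifit3, the most abundant of them, was at 62.1, 104, 138 and 155 FPKM in LysM0 to LysM3 and 116, 45.3, 131 and 115 FPKM in K2KO0 to K2KO3. In each genotype 1 library (LysM0 at 62.1 FPKM, K2KO1 at 45.3 FPKM) lay below the others, which were all above 100 FPKM. The median SD within a genotype was 0.616 on the log2 scale, the highest of the 9 role groups.

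Some proteins of the OAS family make oligoadenylates that switch on RNase L. The 6 genes of the family had 0 calls. Oasl2 was the most abundant, at 85.1, 129, 142 and 159 FPKM in LysM0 to LysM3 and 144, 79.8, 137 and 143 FPKM in K2KO0 to K2KO3. In both genotypes 3 libraries lay between 129 and 159 FPKM and 1 at 79.8 or 85.1 FPKM (log2 fold change -0.036, 95% interval -0.56 to 0.49, limma adjusted p = 0.926). Oas1a and Oas1g had log2 fold changes of -0.24 and -0.37 (limma adjusted p = 0.279 and 0.2504), Oas2 and Oas3 of -0.10 and -0.085, and Oasl1 of 0.14.

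Among the 5 sensors of nucleic acids, Ifih1 came nearest to the thresholds. Ifih1 (MDA5), which senses long double-stranded RNA, was at 3.98, 5.82, 5.84 and 6.11 FPKM in LysM0 to LysM3 and 8.46, 6.05, 7.73 and 6.79 FPKM in K2KO0 to K2KO3. Only K2KO1 of the libraries labelled K2KO lay within the LysM range, below LysM3, and the difference missed the adjusted threshold (log2 fold change 0.42, 95% interval 0.082 to 0.75, limma adjusted p = 0.0745). After the adjustment for GC and length its log2 fold change was 0.22 (limma adjusted p = 0.357). Ddx58 (RIG-I), the sensor of short RNA ends, and Dhx58 (LGP2), a helicase of the same family, had log2 fold changes of -0.093 and -0.26. Eif2ak2 (PKR), a kinase that halts translation on double-stranded RNA, was at 8.72 ± 1.52 FPKM (SD, n = 4) and 8.71 ± 1.54 FPKM (SD, n = 4), for a log2 fold change of -0.0036 (95% interval -0.36 to 0.35). Zbp1, a sensor of Z-form nucleic acids that can start necroptosis, had -0.38 with a wide interval of -1.18 to 0.43.

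Irf7, the factor that amplifies type I interferon production, was at 114, 188, 203 and 253 FPKM in LysM0 to LysM3 and 215, 97.8, 185 and 200.2 FPKM in K2KO0 to K2KO3. The highest library of a genotype was 2.22-fold (LysM) and 2.199-fold (K2KO) above LysM0 and K2KO1, and the genotype difference was small against this spread (log2 fold change -0.12, 95% interval -0.78 to 0.53, limma adjusted p = 0.778). Irf9, the DNA-binding part of the STAT complex, was at 28.4, 31.1, 35.8 and 36.2 FPKM in LysM0 to LysM3 and 33.5, 26.3, 33.3 and 34.3 FPKM in K2KO0 to K2KO3. It had the narrowest spread of the 45 genes and an interval of -0.29 to 0.20 around a log2 fold change of -0.046.

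The GTPases that act on pathogen vacuoles comprise 8 genes, of which 6 were tested and 0 called. Irgm1, a regulator of the group, was at 56.9 ± 11.96 FPKM (SD, n = 4) and 56.7 ± 11.3 FPKM (SD, n = 4), for a log2 fold change of -0.0033 (95% interval -0.43 to 0.42). Irgm2 and Igtp, which share 162 exon bases on the same strand and are uncertain for it, had 0.13 and -0.30, and Ifi47 had -0.19. Gbp2, a guanylate-binding protein strongly induced by interferon gamma, was at 2.36, 4.38, 4.74 and 8.998 FPKM in LysM0 to LysM3 and 5.38, 3.33, 5.702 and 18.2 FPKM in K2KO0 to K2KO3. K2KO3 and, among the LysM libraries, LysM3 stood above the rest, and the interval of the difference was the widest of the list (log2 fold change 0.51, 95% interval -0.66 to 1.68, limma adjusted p = 0.494). Gbp3 had 0.19. Gbp5 was at 0.206 to 0.958 FPKM and Gbp7 at 0.257 to 0.636 FPKM over the 8 libraries, too low to be tested here.

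Parp14, an ADP-ribosyltransferase of macrophages, had a log2 fold change of -0.046 (95% interval -0.36 to 0.27). Among the remaining genes Lgals3bp, a secreted protein that binds galectins, was at 331, 390.0, 386 and 421 FPKM in LysM0 to LysM3 and 469.8, 334, 438 and 420.4 FPKM in K2KO0 to K2KO3. It was again lowest in LysM0 and K2KO1, and it was highest in K2KO0 (log2 fold change 0.11, 95% interval -0.15 to 0.38, limma adjusted p = 0.495). Rtp4 was at 131, 213, 209 and 259.5 FPKM in LysM0 to LysM3 and 210.0, 114, 202 and 213 FPKM in K2KO0 to K2KO3. Apart from LysM0, K2KO1 and LysM3 its libraries lay between 202 and 213 FPKM (log2 fold change -0.14, 95% interval -0.69 to 0.42, limma adjusted p = 0.704). Rtp4 shares 296 exon bases on the same strand with the listed gene Gm45338 and is uncertain for it. Ifi35, Xaf1, which binds the apoptosis inhibitor XIAP, and Sp100, a protein of nuclear bodies, had log2 fold changes of -0.46, -0.38 and -0.36 (limma adjusted p = 0.107, 0.304 and 0.195). Ifi44 had 0.37 (limma adjusted p = 0.497).

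A list of 68 other genes of the interferon pathway, comprising ligands, receptors, kinases, STATs, IRFs, inducers, regulators and a few enzymes that interferon itself induces, was read in the same fit. Of these 52 were listed, 44 were tested, 1 was higher and 4 were lower in the libraries labelled K2KO, or 11.4% of the 44 against 18.4% of all tested genes. The balance of directions was not stable, with 3 higher and 2 lower after upper-quartile scaling over tested genes and 6 higher and 5 lower without K2KO3. Of the 19 ligands 5 were listed. Ifnb1, Ifna2 and Ifnab were listed at 0 in all 8 libraries, and Ifnk and Ifng did not exceed 0.0977 FPKM in any. A listed 0 can be a failed estimate, so the ligands were neither compared nor read as absent. Of the 5 receptor genes tested 0 were called. Ifnar1 was at 21.1 ± 0.814 FPKM (SD, n = 4) and 23.5 ± 0.953 FPKM (SD, n = 4), with every library labelled K2KO above every LysM library, but the change was small and missed the adjusted threshold (log2 fold change 0.15, 95% interval 0.028 to 0.28, limma adjusted p = 0.0776). Ifnar2 was at 175 ± 20.3 FPKM (SD, n = 4) and 157 ± 18.7 FPKM (SD, n = 4) (log2 fold change -0.16, 95% interval -0.40 to 0.084, limma adjusted p = 0.304). Ifngr1 and Ifngr2 had log2 fold changes of -0.033 and -0.064, with intervals of -0.20 to 0.13 and -0.21 to 0.082 that exclude a change of 0.26.

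Jak2, the kinase at the interferon gamma receptor, was the pathway gene that rose. It was at 3.12, 3.401, 3.33 and 3.72 FPKM in LysM0 to LysM3 and 4.77, 4.603, 4.66 and 3.81 FPKM in K2KO0 to K2KO3 (log2 fold change 0.38, 95% interval 0.18 to 0.59, limma adjusted p = 0.0241). The groups did not overlap, with K2KO3 closest to the LysM libraries. Stat2, which is itself induced by interferon, was at 18.6, 22.5, 25.5 and 28.3 FPKM in LysM0 to LysM3 and 30.02, 16.8, 26.5 and 28.5 FPKM in K2KO0 to K2KO3. It was lowest in LysM0 and K2KO1, and the genotype difference did not pass the test (log2 fold change 0.083, 95% interval -0.35 to 0.51, limma adjusted p = 0.776). In all, 13 of the 44 pathway genes were lowest in these 2 libraries, where 13.0% of all tested genes were. Among the 13 were Irf1, Trex1 and the interferon-induced Isg20, Uba7 and Ube2l6, of which the last pair encode enzymes of ISG15 conjugation. The receptor genes Ifnar2 and Ifngr2 and the inducers Myd88 and Tmem173 were among them too.

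Ikbke, a kinase that phosphorylates IRF3 and IRF7, fell. It was at 64.3, 67.5, 75.9 and 77.8 FPKM in LysM0 to LysM3 and 55.9, 53.8, 51.6 and 48.4 FPKM in K2KO0 to K2KO3 (log2 fold change -0.44, 95% interval -0.62 to -0.26, limma adjusted p = 0.0121), and the 4 values of the K2KO group lay below all 4 of the LysM group. Ptpn2 and Ptpn6, phosphatases that restrain JAK and STAT signaling, fell as well. Ptpn2 was at 16.7 ± 1.59 FPKM (SD, n = 4) and 13.2 ± 1.26 FPKM (SD, n = 4) (log2 fold change -0.33, 95% interval -0.54 to -0.13, limma adjusted p = 0.0336), and Ptpn6 at 110.3 ± 10.3 FPKM (SD, n = 4) and 89.3 ± 5.35 FPKM (SD, n = 4) (log2 fold change -0.30, 95% interval -0.48 to -0.12, limma adjusted p = 0.0311). Irf2bp1, a binding partner of IRF2 and not itself an IRF, was the other gene that was lower (log2 fold change -0.29, 95% interval -0.50 to -0.094, limma adjusted p = 0.0459). Irf3, the factor that first switches on type I interferon, was lower in every library labelled K2KO, at 40.9 ± 1.79 FPKM (SD, n = 4) and 35.8 ± 0.684 FPKM (SD, n = 4), and passed the adjusted p but not the fold threshold (log2 fold change -0.19, 95% interval -0.31 to -0.075, limma adjusted p = 0.0336). This did not hold after the adjustment for GC and length (log2 fold change -0.057, limma adjusted p = 0.522) or with quantile normalization (-0.13, limma adjusted p = 0.1695). With 1 library left out, Irf3 passed the adjusted p only without K2KO3 (limma adjusted p = 0.0316). In the other fits of this kind the limma adjusted p was 0.0583 to 0.0963. Irf5 likewise passed the adjusted p but not the fold threshold (log2 fold change -0.23, 95% interval -0.35 to -0.10, limma adjusted p = 0.0252). It was at 213 ± 4.47 FPKM (SD, n = 4) and 182 ± 7.03 FPKM (SD, n = 4), and its groups did not overlap. Separate groups of this kind were found for 23.1% of all tested genes. Irf5 was not followed singly under the alternatives. Irf8 and Irf1 were not called (log2 fold changes -0.079 and 0.11, limma adjusted p = 0.335 and 0.739). After the adjustment for GC and length 2 of the 44 were called, against 10.05% of all tested genes, namely Ikbke and Ptpn2. The calls of Jak2 (log2 fold change 0.22, limma adjusted p = 0.0988), Ptpn6 (-0.21, limma adjusted p = 0.123) and Irf2bp1 (-0.093, limma adjusted p = 0.311) were lost. With 1 library left out in turn, Ikbke was called in all 8 fits. Ptpn6 was called in 4 (without LysM0, LysM1, K2KO1 or K2KO3), Jak2 in 3 (without LysM0, LysM3 or K2KO3), Ptpn2 in 2 (without LysM0 or K2KO3) and Irf2bp1 in 1 (without K2KO3).

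**Figure D5:**
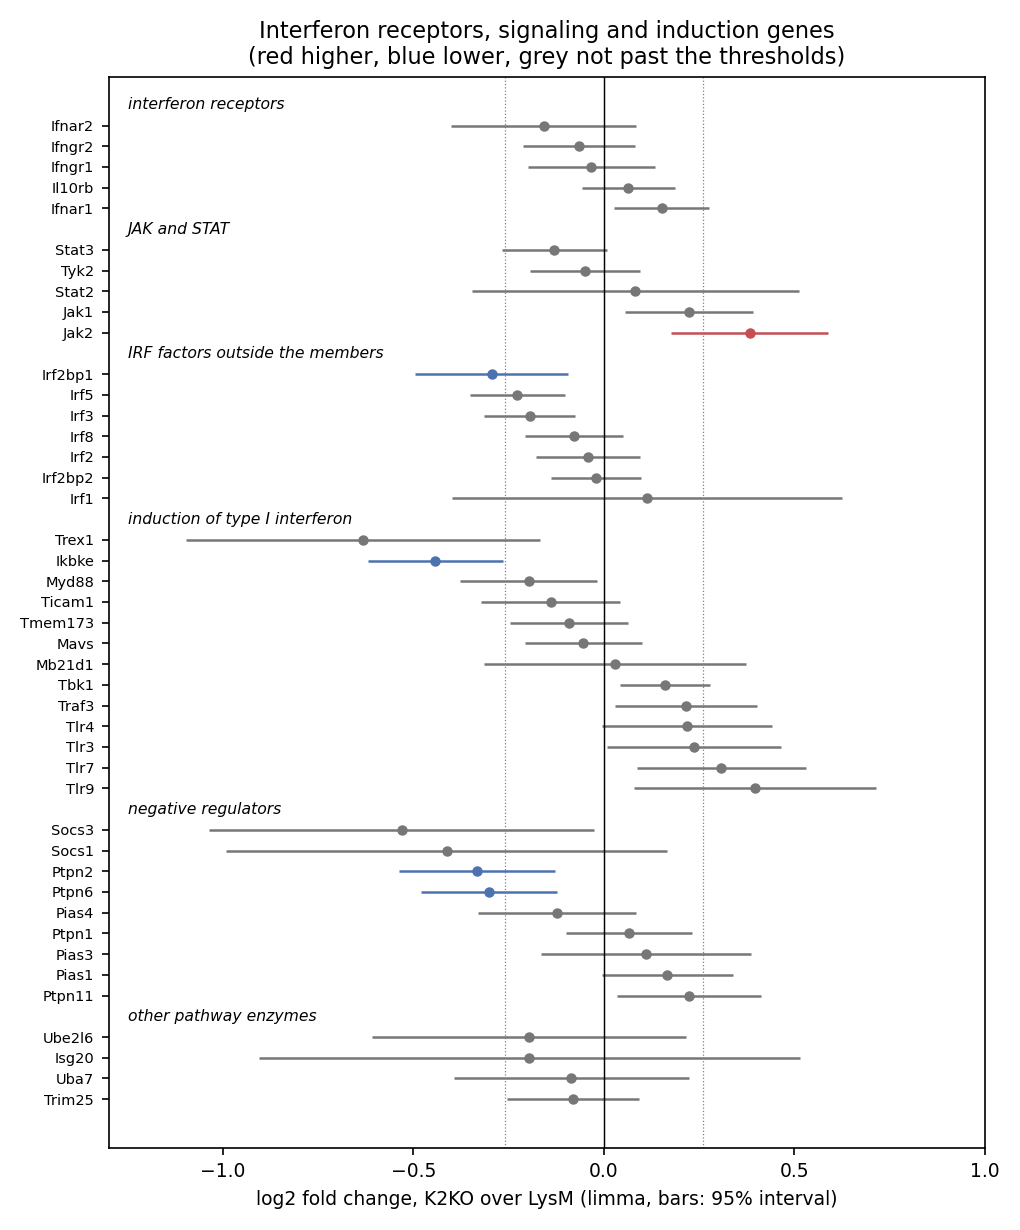
Log2 fold change of 43 of the 44 tested pathway genes, libraries labelled K2KO over LysM libraries (x axis), grouped by role (y axis), with limma estimates, 95% intervals and dotted lines at -0.26 and 0.26. Jak2 (0.38) is the one called higher, and Ikbke (-0.44), Ptpn2, Ptpn6 and Irf2bp1 are called lower.

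In bulk RNA, fewer cells of a type and less RNA per cell cannot be told apart, so markers of other cells that marrow cultures can hold were summed. The macrophage list of 9 genes summed to 4292, 4389, 4156 and 4304 FPKM in LysM0 to LysM3 and 3938, 3891, 4027 and 4044 FPKM in K2KO0 to K2KO3. The 4 sums of the K2KO group lay below the 4 LysM sums, with K2KO1 the lowest of its genotype and LysM0 within the LysM range. Most of the sum was Cd68 and Cd14, and Cd14 was at 1028 ± 56.7 FPKM (SD, n = 4) and 829 ± 118 FPKM (SD, n = 4), below the LysM range in each library labelled K2KO (log2 fold change -0.32, 95% interval -0.56 to -0.077, limma adjusted p = 0.06302). Of the 9 genes Lyz2 was called lower and Mertk, a receptor for apoptotic cells, higher (log2 fold change 0.36, 95% interval 0.15 to 0.57, limma adjusted p = 0.0285). Fcgr1, an Fc receptor of the same list that interferon gamma is known to induce, was at 78.9, 124, 137 and 156 FPKM in LysM0 to LysM3 and 119, 66.6, 109 and 113 FPKM in K2KO0 to K2KO3, lowest in LysM0 and K2KO1 (log2 fold change -0.28, 95% interval -0.81 to 0.26, limma adjusted p = 0.416). Itgam was also lowest in LysM0, at 49.00 FPKM, but in K2KO3 among the libraries labelled K2KO. The neutrophil list of 9 genes, led by S100a9, summed to 187, 273, 235 and 323 FPKM in LysM0 to LysM3 and 178, 296, 232 and 311 FPKM in K2KO0 to K2KO3. Its lowest libraries were K2KO0 and LysM0. Of the 8 tested genes of this list Camp, an antimicrobial peptide of neutrophil granules, was called lower, at 12.6, 14.8, 11.1 and 16.01 FPKM in LysM0 to LysM3 and 4.04, 6.77, 4.99 and 9.78 FPKM in K2KO0 to K2KO3 (log2 fold change -1.14, 95% interval -1.69 to -0.60, limma adjusted p = 0.0178), with no overlap of the groups. Plasmacytoid dendritic cells make much type I interferon, and their list of 8 genes shares its most abundant gene, Bst2, with the genes studied here. The list summed to 698, 1051, 1237 and 1336 FPKM in LysM0 to LysM3 and 761, 451, 789 and 967 FPKM in K2KO0 to K2KO3, nearly all of it Bst2, and 0 of its 3 tested genes were called. Tcf4 was at 11.2 ± 0.6900 FPKM (SD, n = 4) and 12.7 ± 1.11 FPKM (SD, n = 4) (log2 fold change 0.17, 95% interval -0.0015 to 0.35, limma adjusted p = 0.135), and Cox6a2 at 1.93 ± 0.637 FPKM (SD, n = 4) and 1.06 ± 0.287 FPKM (SD, n = 4) (log2 fold change -0.78, 95% interval -1.44 to -0.12, limma adjusted p = 0.08598). The other 5 were below the filter. Siglech was at 0.0658, 0.264, 0.194 and 0.295 FPKM in LysM0 to LysM3 and 0.339, 0.434, 0.367 and 0.712 FPKM in K2KO0 to K2KO3, so that it was low throughout but higher in each library labelled K2KO than in any LysM library. The same order held for Ccr9, with means of 0.0235 and 0.134 FPKM, and for Runx2, with means of 0.605 and 0.9203 FPKM, and these 3 were not tested. For Ly6d and Klk1, which were not tested either, the groups overlapped. Among all tested genes the groups did not overlap for 23.1%. The conventional dendritic cell list of 7 genes, led by Itgax, summed to 6.395 to 9.64 FPKM and was highest in K2KO1. The T cell list summed to at most 6.19 FPKM, mostly Cd4, which was the 1 of its 6 genes that was tested and rose (log2 fold change 1.38, 95% interval 1.12 to 1.65, limma adjusted p = 0.000434), the B cell list to at most 5.44 FPKM and the fibroblast list to at most 3.42 FPKM. The natural killer, erythroid, and mast cell and basophil lists summed to at most 0.343, 1.88 and 0.837 FPKM, with Gzma, Hbb-bt and Tpsb2 listed at 0 in all libraries. K2KO1 had the highest relative depth, while LysM0 had the fourth lowest. The part of these values in the low level of the interferon-stimulated genes in LysM0 and K2KO1 was not tested.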

How the data were processed

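The authors aligned reads of BMDM total RNA to mm10 and deposited one table of FPKM computed with Cufflinks, with no pooling of replicates. The methods name TopHat2 and the submitters' processing notes STAR, and versions are not given in the sources used here. No column was left unmapped. Positions, lengths and GC content come from GENCODE M21 on GRCm38, the assembly of mm10, which matched 23645 of the 23761 genes.

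Genes averaging 1 FPKM or more were fitted on log2(FPKM + 0.1) with limma 3.58.1 (eBayes with trend, R 4.3.3), without covariates, and 95% intervals come from the same fit. Copies were sought with blastn 2.17.0 (at least 95% identity over 200 bases). Of the 47 members, 12 hold such a stretch in another listed gene and 16 share exon bases with one. By either measure the values of 22 are uncertain, among them those of Adar, Herc6, Ifi35, Rtp4 and Sp100. The members and lists were chosen with earlier results of these data known. Genes given by library are Klf2, the called members, the 5 most abundant, the 5 with the largest change and the 2 nearest the thresholds. Of the pathway genes, 10 and up to 6 called ones were to be named, and some of these are given only as means or fold changes. Others were picked as examples after their values were seen. One pathway gene is counted but its values are not reported here. The procedure was tested on simulated data. Alternatives were other pseudocounts (1, 0.01), filters (0.1, none), scalings, variance models, a fold threshold of 1, GC and length correction (local regression, span 0.3), a replicate block and libraries left out. Upper-quartile scaling over tested genes and leaving out LysM0 with K2KO1 were added after seeing the data. P-values measure the spread between libraries of different mice, in which mouse, culture and library preparation cannot be told apart.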

Additional observations from a re-analysis of the deposited data

Results flagged for a closer look

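In 14 of 124 groups of 4 libraries, 13 of them among the 94 groups of the 47 interferon-stimulated genes, 1 library lay far from the other 3, where chance gives about 1 in 20 groups, or 6.2. The groups of a list that moves together are not independent, so these libraries are counted many times. K2KO1 was low for Isg15 (49.3 FPKM), Usp18 (20.5 FPKM), Oas1g (13.3 FPKM), Oas3 (41.8 FPKM), Oasl2 (79.8 FPKM), Mx2 (2.99 FPKM), Irf9 (26.3 FPKM), Parp14 (26.4 FPKM), Ifi27l2a (621 FPKM) and Rtp4 (114 FPKM). LysM0 was low for Herc6 (4.19 FPKM) and Ifih1 (3.98 FPKM). K2KO3 was high for Gbp2, at 18.2 FPKM. Outside the list, Ptpn6 was high in K2KO1 at 97.3 FPKM, against 86.2 to 87.2 FPKM in the other 3 libraries labelled K2KO. What sets K2KO1 and LysM0 apart was not tested.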

How the results depend on the processing

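The number of interferon-stimulated genes called, 2 of 45 (1 higher, 1 lower), stayed between 0 and 2 under every alternative that kept all 8 libraries. It was 1 (0 lower) with log2(FPKM + 1), a mean FPKM of at least 0.1, quantile normalization or no intensity trend, and 1 (0 higher) with the replicate block on the column number. It was 0 without a filter (3 at an unadjusted p under 0.05), with ordinary least squares (2), at an absolute log2 fold change over 1 (5), with the GC content and length correction (4), and with that correction and the replicate block together (3). Upper-quartile scaling over tested genes gave 2 higher (Dtx3l and Ifih1) and 0 lower, and raised the share of higher genes among all calls from 53.3% to 64.1%, while it was 46.3% with upper-quartile scaling over genes above 0 and 44.2% with the GC and length correction. Leaving out one library gave 0 to 6 called (0 to 1 higher and 0 to 5 lower), most without LysM0, and leaving out both LysM0 and K2KO1 gave 10 (2 higher, 8 lower). The median log2 fold change of the list lay between -0.29 without LysM0 and 0.078 without K2KO1. Pathway genes called numbered 5, and 3 with quantile normalization or the replicate block, 2 with the GC and length correction with or without the block, 1 without a filter or with ordinary least squares, 0 over a log2 fold change of 1, and 1 to 11 with a library left out (1 higher and 4 lower with all libraries, 3 and 2 with upper-quartile scaling over tested genes, 6 and 5 without K2KO3). Of all genes, 2014 were called, against 483 without a filter, 746 with ordinary least squares, 110 over a log2 fold change of 1, 1095 with the GC and length correction and 864 with that correction and the block. Leaving out a library gave 543 (without LysM3) to 2863 (without K2KO3).

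The column numbers did not pair the libraries: same-numbered libraries had correlations of their deviations between -0.07 and 0.073 over the 4 pairs. The highest of all 16 combinations was 0.18 for LysM0 with K2KO1, followed by 0.14 for LysM3 with K2KO0, and with the replicate block 2057 genes were called. Klf2 was not called under any setting (log2 fold change -0.31 to 0.039). Of 483 single-gene values under alternatives, 402 stayed called or stayed not called, 74 lost and 7 gained a call, and none called changed sign. FPKM give no counting error, so how far depth limits the low genes Dtx3l, Gbp5 and Gbp7 is not known.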
